A study of Homo sapiens with 18 samples.

Results

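Amino acids enter cells through membrane carriers, and 10 genes of such carriers were followed by RNA sequencing in HAIR-M, a line of human lymphoma cells (MZL in the labels, marginal zone lymphoma, a tumour of B cells). The 10 genes were taken by symbol (SLC7A5, SLC3A2, SLC7A11, SLC7A1, SLC7A6, SLC38A1, SLC38A2, SLC1A4, SLC1A5 and SLC6A9) out of 60483 gene identifiers in the deposited count tables, and all 10 were among the 16122 genes with enough reads to be tested. Copanlisib, a drug that blocks PI3K lipid kinases, was given at 5 nM for 4, 8 or 12 h, and control cells were given the solvent DMSO for the same times. Each of these 6 groups held 3 libraries, 18 in all, with 13587017 to 25566761 reads assigned to genes. The medium held fetal bovine serum and added glutamine in every group, and all libraries came from 1 cell line, with no label saying whether replicates were separate cultures. The p-values therefore measure the spread between these libraries, which may be technical.

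SLC3A2 (CD98) is a glycoprotein that pairs with a light chain to form a carrier at the cell surface. With SLC7A5 (LAT1) it brings in leucine and other large neutral amino acids. With SLC7A6 (y+LAT2) it exchanges cationic for neutral amino acids, and with SLC7A11 (xCT) it brings in cystine in exchange for glutamate. The other members work without it. SLC7A1 carries arginine and lysine, and SLC1A5 and SLC1A4 exchange serine, alanine and other small neutral amino acids, SLC1A5 also glutamine. SLC38A1 and SLC38A2 bring in glutamine and alanine together with sodium, and SLC6A9 carries glycine. In many cell types PI3K acts through AKT on the kinase complex mTORC1, which leucine and arginine also activate. The transcription factors ATF4 and MYC are known to raise several of these carriers.

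Before the results on the carriers, the libraries themselves need a description. Copanlisib 4 h replicates 1 and 2 stood apart from the other 16 libraries: 8.73% and 5.22% of their reads were unmapped, against 1.74% to 2.82% elsewhere, and 12.4% and 12.6% of their gene reads were mitochondrial, against 9.07% to 10.5%. The 4 h fold changes of named genes are therefore also given with replicate 3 as the only copanlisib library at that time. In that fit the lone library is assumed to vary like the libraries of the other groups, so it is no replicate check. Levels are given in CPM, a gene's share of a library's gene reads after TMM scaling. The marker sums that follow are CPM without TMM scaling. The 6 B cell markers summed to 1308 to 2025 CPM per library, with 1976 to 2025 CPM in copanlisib libraries at 12 h and 1625 to 1648 CPM in DMSO libraries at 12 h. Of 6 T and NK cell markers, CD3D had 0 reads and the sum was 7.46 to 16.6 CPM, nearly all of it NKG7, and 5 myeloid markers summed to 4.26 to 9.83 CPM. The labels' extraction text speaks of retinas, but 6 retina markers summed to 2.54 to 3.50 CPM, nearly all of it NRL. The 6 markers of stroma and epithelium summed to 73.0 to 77.2 CPM in copanlisib libraries at 12 h and 48.6 to 53.9 CPM in DMSO libraries at 12 h. Most of this sum was KRT18 (18.6 to 29.6 CPM over all libraries), COL1A1 (12.5 to 27.9 CPM) and KRT8 (12.3 to 20.8 CPM). EPCAM had 1.26 to 2.83 CPM, and COL1A2 and DCN were near 0. At 8 h the same sum was 76.3 to 78.5 CPM with copanlisib and 52.1 to 58.1 CPM with DMSO, and at 4 h 51.9 to 65.5 CPM with copanlisib and 54.4 to 59.2 CPM with DMSO. The part of these marker differences in the results was not tested.

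Most of the 10 carrier transcripts were lower in copanlisib cells at every time. At 4 h, 7 fell and 2 rose by edgeR's quasi-likelihood test (adjusted p under 0.05), beside 20.7% of all tested genes that fell and 17.7% that rose (38.4% in either direction). With replicate 3 alone at 4 h, 8 fell and 1 rose, beside 13.4% and 8.86% of 17007 tested genes, and the median log2 fold change of the 10 was −0.67. At 8 h, 7 fell and 1 rose, beside 18.3% and 14.8% of all tested genes (33.1% in all). At 12 h, 7 fell and 2 rose, beside 16.5% and 13.8% (30.3% in all). The median log2 fold change of the 10 members was −0.78, −0.60 and −0.63 at 4, 8 and 12 h, while over all tested genes it was 0.01, 0.02 and 0.00. SLC7A5, SLC3A2, SLC7A11, SLC7A1, SLC1A5 and SLC6A9 fell at all 3 times, and SLC1A4 rose at all 3. CPM are shares of a library's reads, so these values do not show the amount of RNA per cell, and a change in some of the cells cannot be told apart from a change in all of them.

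**Figure D1:**
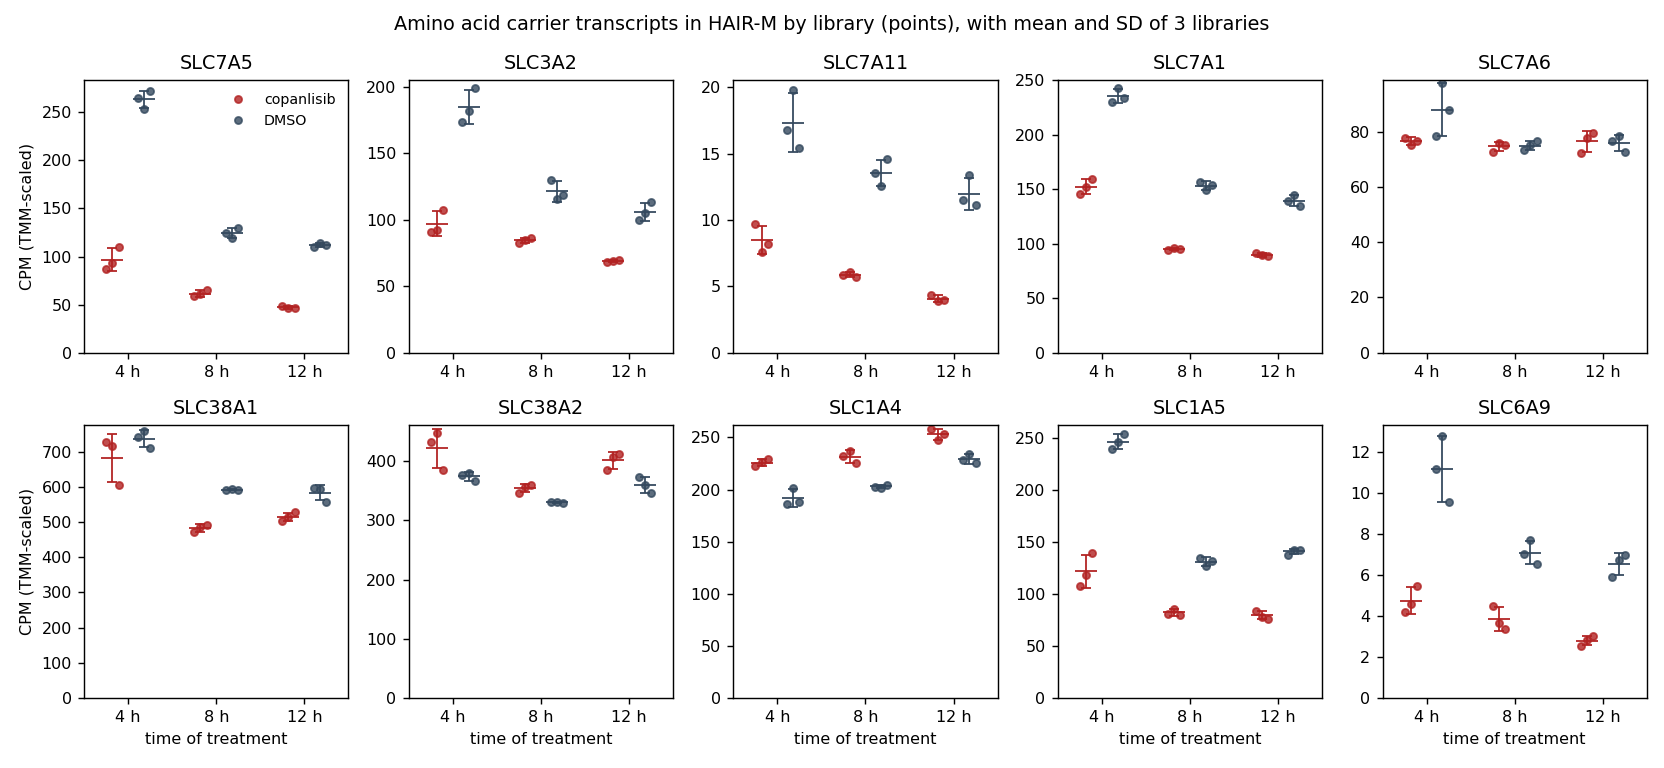
Level of each of the 10 carrier transcripts (vertical axis, CPM scaled by TMM, starting at 0 and different for each gene) at 4, 8 and 12 h (horizontal axis); points are single libraries, horizontal marks the mean and bars the SD of 3 libraries, red copanlisib and dark blue DMSO. SLC7A5 at 4 h lay at 86.9, 93.8 and 109.9 CPM with copanlisib and 265, 254 and 272 CPM with DMSO, and for SLC1A4 every copanlisib library lay above every DMSO library of its time.

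The sequence just before a transcription start is shown for 3 members that differ in response, SLC7A5 and SLC1A5, which fell, and SLC1A4, which rose. SLC1A5 and SLC1A4 also have other RefSeq starts, whose windows are not printed. Each is the 250 bases before a RefSeq start in the GRCh38.p14 assembly, printed 5′ to 3′ on the gene's strand, at chr16:87869508-87869757 (minus strand) for SLC7A5, chr19:46788595-46788844 (minus strand) for SLC1A5 and chr2:64988229-64988478 (plus strand) for SLC1A4. Capitals mark a match to 1 of the 3 motifs searched.
SLC7A5: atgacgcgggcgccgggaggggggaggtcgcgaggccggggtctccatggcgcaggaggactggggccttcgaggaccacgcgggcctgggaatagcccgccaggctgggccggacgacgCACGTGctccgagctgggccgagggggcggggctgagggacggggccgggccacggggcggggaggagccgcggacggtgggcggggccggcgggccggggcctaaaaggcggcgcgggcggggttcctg
SLC1A5: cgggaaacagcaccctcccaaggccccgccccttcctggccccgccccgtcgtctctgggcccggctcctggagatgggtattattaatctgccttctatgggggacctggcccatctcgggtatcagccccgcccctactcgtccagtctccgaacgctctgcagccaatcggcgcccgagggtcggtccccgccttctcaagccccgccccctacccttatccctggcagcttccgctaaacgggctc
SLC1A4: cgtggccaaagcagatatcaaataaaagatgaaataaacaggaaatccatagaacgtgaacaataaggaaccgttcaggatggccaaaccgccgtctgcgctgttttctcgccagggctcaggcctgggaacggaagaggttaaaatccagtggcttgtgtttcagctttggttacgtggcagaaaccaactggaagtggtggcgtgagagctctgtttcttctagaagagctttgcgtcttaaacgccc

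The motifs, searched on both strands, were the E-box CACGTG, the core TGATGNAA of the element bound by CEBP-ATF dimers, and the FOXO site TGTTTAC. Of the 10 members, 9 were in the RefSeq table, with 15 start sites. The SLC7A5 window held an E-box 130 to 125 bases before the start, and the SLC1A5 and SLC1A4 windows printed above held no match. SLC1A5 had matches before its other starts: an E-box 50 to 45 bases before 1 of them and, before another, TGATGCAA at 97 to 90 bases and a FOXO site on the reverse strand at 227 to 221 bases. No other member window held any of the 3, and that includes the window before another SLC1A4 start (chr2:64989149-64989398). Among 35116 windows of the same length in the table, 6.34% held the E-box, 3.14% TGATGNAA and 2.98% TGTTTAC. These are letter matches, and no binding was measured.

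SLC7A5, the LAT1 light chain, spans chr16:87830023-87869488 on the minus strand (GENCODE 29, as all gene positions here; ENSG00000103257.7). At 4 h it had 86.9, 93.8 and 109.9 CPM in the copanlisib libraries, against 265, 254 and 272 CPM in the DMSO libraries. At 8 h the values were 58.4, 60.8 and 65.1 CPM with copanlisib, against 125, 119.8 and 129 CPM with DMSO. At 12 h they were 48.8, 46.8 and 46.1 CPM with copanlisib, against 109.9, 114 and 112 CPM with DMSO. Every copanlisib library lay below every DMSO library of its time, and both arms were lower at the later times. The log2 fold change, given with its standard error here and below, was −1.44 ± 0.06 (edgeR adjusted p = 1.9e-15) at 4 h, −1.02 ± 0.06 (edgeR adjusted p = 4.7e-12) at 8 h and −1.25 ± 0.07 (edgeR adjusted p = 1.5e-13) at 12 h. With replicate 3 as the only copanlisib library at 4 h it was −1.26.

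SLC3A2, the shared heavy chain (chr11:62856102-62888875, plus strand, ENSG00000168003.15), had smaller fold changes than SLC7A5. It had 90.4, 92.3 and 108 CPM with copanlisib at 4 h, against 173, 181 and 199 CPM with DMSO. At 8 h it had 82.5, 84.8 and 85.9 CPM with copanlisib, against 130.0, 115 and 118 CPM with DMSO, and at 12 h 68.0, 69.2 and 69.6 CPM with copanlisib, against 99.6, 105 and 113 CPM with DMSO. The groups did not overlap at any time. Its log2 fold changes were −0.93 ± 0.06 (edgeR adjusted p = 1.3e-11), −0.52 ± 0.06 (edgeR adjusted p = 3.4e-07) and −0.62 ± 0.07 (edgeR adjusted p = 4.2e-08) at 4, 8 and 12 h, and −0.78 at 4 h with replicate 3 alone.

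SLC7A11, the cystine carrier (chr4:138164097-138242349, minus strand, ENSG00000151012.12), was scarce, with 62 to 392 reads per library. At 4 h it stood at 9.70, 7.61 and 8.18 CPM in copanlisib cells, against 16.8, 19.8 and 15.4 CPM in DMSO cells. By 8 h it was at 5.84, 6.07 and 5.68 CPM with copanlisib, against 13.5, 12.5 and 14.6 CPM with DMSO, and by 12 h at 4.35, 3.89 and 3.99 CPM with copanlisib, against 11.5, 13.4 and 11.1 CPM with DMSO. The copanlisib libraries were the lower ones throughout. The log2 fold change was −1.03 ± 0.10 (edgeR adjusted p = 1.5e-08) at 4 h, −1.20 ± 0.11 (edgeR adjusted p = 3.6e-09) at 8 h and −1.55 ± 0.13 (edgeR adjusted p = 5.5e-10) at 12 h, and −1.08 at 4 h with replicate 3 alone. The last of the heavy chain's partners here, SLC7A6 (chr16:68264516-68301823, plus strand, ENSG00000103064.12), had 77.9, 75.1 and 76.5 CPM with copanlisib at 4 h, against 78.5, 97.6 and 87.8 CPM with DMSO. That difference, −0.21 ± 0.06 (edgeR adjusted p = 0.0079) on the log2 scale and −0.21 with replicate 3 alone, rested on DMSO replicate 2: without it the value was −0.12 (edgeR adjusted p = 0.14). It also did not pass when only the 4 h libraries were fitted (edgeR adjusted p = 0.079). At 8 and 12 h SLC7A6 did not pass, with log2 fold changes of −0.00 ± 0.06 (95% interval −0.13 to 0.12) and 0.01 ± 0.06 (−0.11 to 0.14). SLC7A6 shares 3371 exonic bases with SLC7A6OS on the opposite strand, and 28.2% of its strand-assigned reads lay on that strand, so its level depends on the strand-specific counts used here. SLC7A6OS itself was at 0.14 ± 0.06 (0.03 with replicate 3 alone), 0.14 ± 0.06 and 0.17 ± 0.06 at 4, 8 and 12 h. Its pass at 12 h (edgeR adjusted p = 0.042) was lost in 9 of the 18 fits without 1 library (adjusted p up to 0.17), with DESeq2 (adjusted p = 0.054) and with counts without strand (0.02, adjusted p = 0.91).

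The arginine and lysine carrier SLC7A1 (chr13:29509410-29595688, minus strand, ENSG00000139514.11) fell by nearly the same fold at each time. At 4 h it had 146, 152 and 159 CPM with copanlisib, against 230.3, 243 and 234 CPM with DMSO. The 8 h values were 93.9, 95.7 and 95.0 CPM with copanlisib, against 157, 149 and 154 CPM with DMSO, and those at 12 h 91.3, 89.2 and 88.5 CPM with copanlisib, against 139.6, 144 and 135 CPM with DMSO. No copanlisib library reached a DMSO library of its time. The log2 fold changes were −0.63 ± 0.04 (edgeR adjusted p = 2.0e-11), −0.69 ± 0.04 (edgeR adjusted p = 6.9e-12) and −0.64 ± 0.05 (edgeR adjusted p = 5.0e-11) at 4, 8 and 12 h, with −0.56 at 4 h for replicate 3 alone.

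Among the carriers of small neutral amino acids, SLC1A5 (ASCT2; chr19:46774883-46788594, minus strand, ENSG00000105281.11) and SLC1A4 (ASCT1; chr2:64988477-65023865, plus strand, ENSG00000115902.9), 2 members of 1 family, went in opposite directions. SLC1A5 had 108, 118 and 139 CPM with copanlisib at 4 h, against 239, 246 and 253 CPM with DMSO. It had 81.1, 85.5 and 79.8 CPM with copanlisib at 8 h, against 135, 127 and 131 CPM with DMSO, and 83.6, 78.1 and 76.2 CPM with copanlisib at 12 h, against 138, 142 and 142 CPM with DMSO. Copanlisib libraries were below DMSO libraries in each set, with replicate 3 the highest of the copanlisib libraries at 4 h. Its log2 fold change was −1.02 ± 0.06 (edgeR adjusted p = 1.8e-12), −0.67 ± 0.06 (edgeR adjusted p = 4.7e-09) and −0.83 ± 0.06 (edgeR adjusted p = 2.2e-10) at 4, 8 and 12 h, and −0.82 at 4 h with replicate 3 alone. It shares 780 exonic bases with the gene AC008622.2.

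SLC1A4 had 222, 226 and 229 CPM with copanlisib at 4 h, against 186, 202 and 188 CPM with DMSO. At 8 h it was at 232, 237 and 225 CPM with copanlisib, against 202, 202 and 204 CPM with DMSO, and at 12 h at 258, 247 and 253 CPM with copanlisib, against 228, 234 and 225 CPM with DMSO. The groups stayed apart, with copanlisib the higher, but the difference was small: log2 0.24 ± 0.04 (edgeR adjusted p = 5.2e-05), 0.19 ± 0.04 (edgeR adjusted p = 6.3e-04) and 0.14 ± 0.04 (edgeR adjusted p = 0.0092) at 4, 8 and 12 h. Replicate 3 alone gave 0.26 at 4 h.

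SLC38A1 (SNAT1; chr12:46183063-46270017, minus strand, ENSG00000111371.14) and SLC38A2 (SNAT2; chr12:46358189-46372867, minus strand, ENSG00000134294.12), which lie next to each other, had the most reads of the 10. SLC38A1 had 727, 716 and 604 CPM with copanlisib at 4 h, against 740.3, 759 and 711 CPM with DMSO. Only replicate 3 lay below all DMSO libraries there. The difference of −0.11 ± 0.05 (edgeR adjusted p = 0.088) did not pass. It was −0.28 with replicate 3 alone (edgeR adjusted p = 9.4e-06, from that 1 library), −0.16 without copanlisib replicate 1 (0.016) and −0.15 without replicate 2 (0.038). At 8 h SLC38A1 was at 471, 485 and 491 CPM with copanlisib, against 591, 594 and 590.1 CPM with DMSO, a difference of −0.29 ± 0.05 (edgeR adjusted p = 5.6e-05) in log2. At 12 h it was at 503, 513 and 527 CPM with copanlisib, against 597, 593 and 558 CPM with DMSO, a difference of −0.18 ± 0.05 (edgeR adjusted p = 0.0089) in log2. At both later times all copanlisib libraries were the lower ones.

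SLC38A2 had 433, 448 and 385 CPM with copanlisib at 4 h, against 377, 381 and 367 CPM with DMSO, with replicate 3 again the lowest of the copanlisib libraries. It rose at 4 h by 0.17 ± 0.05 (edgeR adjusted p = 0.0051) on the log2 scale, a call that was lost with replicate 3 alone (0.04, edgeR adjusted p = 0.60) without copanlisib replicate 2 (0.12, 0.056) and when only the 4 h libraries were fitted (0.16, 0.076). At 8 h the values were 347, 357 and 359 CPM with copanlisib, against 331, 331 and 330.3 CPM with DMSO, and at 12 h 385, 407 and 413 CPM with copanlisib, against 374, 359 and 347 CPM with DMSO. The groups did not overlap at either time, yet the 8 h difference of 0.10 ± 0.05 (edgeR adjusted p = 0.11) did not pass, though it did without copanlisib 4 h replicate 3 (edgeR adjusted p = 0.016) and when only the 8 h libraries were fitted (0.0043). The 12 h rise of 0.16 ± 0.05 (edgeR adjusted p = 0.012) was lost without copanlisib 12 h replicate 3 (0.14, adjusted p = 0.065) or DMSO 12 h replicate 3 (0.13, adjusted p = 0.075).

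The glycine carrier SLC6A9 (GLYT1; chr1:43991500-44031467, minus strand, ENSG00000196517.10) was the scarcest member in reads, with 45 to 254 per library. It had 4.17, 4.57 and 5.47 CPM with copanlisib at 4 h, against 11.2, 12.8 and 9.58 CPM with DMSO. At 8 h it had 4.50, 3.67 and 3.37 CPM with copanlisib, against 7.03, 7.69 and 6.54 CPM with DMSO, and at 12 h 2.55, 2.82 and 3.01 CPM with copanlisib, against 5.91, 6.74 and 6.96 CPM with DMSO. The groups were separate at each time. The log2 fold change was −1.25 ± 0.13 (edgeR adjusted p = 2.1e-08), −0.90 ± 0.14 (edgeR adjusted p = 1.2e-05) and −1.23 ± 0.16 (edgeR adjusted p = 8.2e-07) at 4, 8 and 12 h, with the widest standard errors of the 10, and −1.03 at 4 h with replicate 3 alone. Of its strand-assigned reads 12.6% lay on the strand of CCDC24, with which it shares 404 exonic bases.

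**Figure D2:**
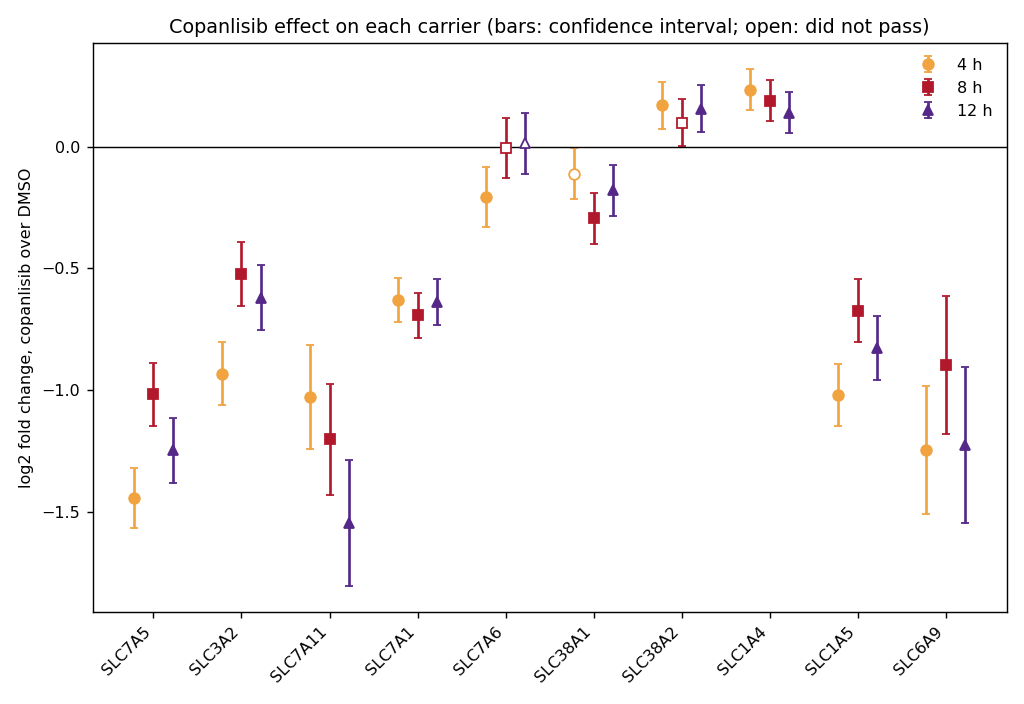
Log2 fold change of copanlisib over DMSO (vertical axis) for each carrier (horizontal axis) at 4 h (circles), 8 h (squares) and 12 h (triangles), with bars for the 95% interval of the edgeR fit; filled symbols passed an adjusted p under 0.05. Values run from −1.55 for SLC7A11 at 12 h to 0.24 for SLC1A4 at 4 h, and 4 symbols are open.

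Levels also changed with time in the solvent alone. From 4 to 8 h in DMSO, 9 members fell and SLC1A4 did not pass, beside 16% of all tested genes that fell and 13.9% that rose (29.8% in all). From 8 to 12 h 2 fell and 1 rose, beside 12.4% and 13.4% (25.7% in all). From 4 to 12 h 8 fell and 1 rose, beside 25.4% and 23.2% (48.6% in all). SLC7A5 in DMSO averaged 264 ± 9.03, 125 ± 4.79 and 112 ± 2.16 CPM at 4, 8 and 12 h (SD, n = 3 each). The fall from 4 to 12 h was −1.23 ± 0.06 on the log2 scale (edgeR adjusted p = 1.5e-14). SLC1A5 (−0.81 ± 0.06), SLC3A2 (−0.80 ± 0.06), SLC6A9 (−0.78 ± 0.12), SLC7A1 (−0.76 ± 0.04) and SLC7A11 (−0.54 ± 0.10) fell over the same interval, and SLC38A1 (−0.34 ± 0.05) and SLC7A6 (−0.22 ± 0.06) fell by less. The SLC7A6 call was lost without DMSO 4 h replicate 2 (−0.12, edgeR adjusted p = 0.11). SLC1A4 rose by 0.26 ± 0.04, and SLC38A2 did not pass at −0.06 ± 0.05.

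Within copanlisib, 7 members fell and 0 rose from 4 to 8 h, beside 21.3% and 19.5% of all tested genes (40.8% in all). From 8 to 12 h 4 fell and 2 rose, beside 11.6% and 14.1% (25.8% in all). From 4 to 12 h 7 fell and 1 rose, beside 26.3% and 25.6% (51.9% in all). With replicate 3 alone at 4 h, the members' median log2 fold change was −0.42 from 4 to 8 h and −0.72 from 4 to 12 h. With all libraries these medians were −0.40 from 4 to 8 h and −0.55 from 4 to 12 h. SLC7A11 (−1.06 ± 0.13) and SLC7A5 (−1.04 ± 0.07) had the largest falls, followed by SLC7A1 (−0.76 ± 0.05) and SLC6A9 (−0.76 ± 0.16), and SLC1A4 again rose (0.16 ± 0.04). SLC7A6 was at 0.00 ± 0.06 (95% interval −0.12 to 0.13). SLC38A2 did not pass at −0.07 ± 0.05, though it fell without copanlisib 4 h replicate 3 (−0.13, edgeR adjusted p = 0.0020). In copanlisib SLC7A5 averaged 96.9 ± 11.8, 61.4 ± 3.39 and 47.2 ± 1.41 CPM at 4, 8 and 12 h, and the mean at 4 h of copanlisib was under the 112 ± 2.16 CPM seen after 12 h of DMSO, with replicate 3 (109.9 CPM) level with the lowest of those (109.9 CPM). SLC1A5 averaged 122 ± 16 CPM at 4 h of copanlisib and 141 ± 2.63 CPM at 12 h of DMSO, where replicate 3 (139 CPM) lay within the DMSO values. The comparisons over time and those of copanlisib with DMSO share libraries.

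The size of the copanlisib effect was then compared between times. In a joint test over the 3 times SLC7A5 (edgeR adjusted p = 0.0042), SLC3A2 (0.0050) and SLC1A5 (0.020) passed, 3 of 10 members beside 18.6% of all tested genes. With replicate 3 alone at 4 h SLC7A5 passed, and SLC3A2 and SLC1A5 did not. A smaller share of all tested genes passed in that fit too. For the same 3 members the effect was smaller in size at 8 h than at 4 h (difference of log2 fold changes, 8 h minus 4 h), namely SLC7A5 by 0.43 ± 0.09 (edgeR adjusted p = 0.0022), SLC3A2 by 0.41 ± 0.09 (0.0033) and SLC1A5 by 0.35 ± 0.09 (0.0091). In the same comparison 9.29% of all tested genes had a higher value at 8 h and 9.86% a lower one (19.1% in all). With replicate 3 as the only copanlisib library at 4 h none of the 3 passed: the differences were 0.24 for SLC7A5 (edgeR adjusted p = 0.067), 0.25 for SLC3A2 (0.087) and 0.14 for SLC1A5 (0.33). Without replicate 3, and with replicates 1 and 2 kept, 6 members passed, but 6353 of all genes did so too, against 3086 with all libraries. Among the 6 were SLC7A6 (0.21, edgeR adjusted p = 0.027), SLC38A1 (−0.26, 2.6e-05) and SLC38A2 (−0.13, 0.033). SLC7A6 also passed without DMSO 4 h replicate 1 (0.27, edgeR adjusted p = 0.021).

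Between 12 h and 4 h, 2 members passed, SLC3A2, whose fall was smaller at 12 h (0.31 ± 0.09, edgeR adjusted p = 0.019), and SLC7A11, whose fall was larger (−0.52 ± 0.17, adjusted p = 0.033). Of all tested genes 16.7% passed, 8.98% in the direction of SLC3A2 and 7.69% in that of SLC7A11. Neither passed with replicate 3 alone at 4 h (0.16, edgeR adjusted p = 0.31, and −0.46, adjusted p = 0.17). Single libraries also decided both. The SLC3A2 call was lost without any 1 of 4 libraries, namely copanlisib 4 h replicate 2, DMSO 4 h replicate 3 and DMSO 12 h replicates 1 and 2, with values of 0.26 to 0.30. The SLC7A11 call was lost without any 1 of 6, namely copanlisib 4 h replicate 1, copanlisib 12 h replicates 2 and 3, DMSO 4 h replicates 1 and 3 and DMSO 12 h replicate 2, with values of −0.50 to −0.41. Without copanlisib 4 h replicate 3, SLC7A5 (0.29, adjusted p = 3.4e-04), SLC1A5 (0.30, 1.2e-04), SLC7A6 (0.22, 0.019) and SLC38A1 (−0.15, 0.015) passed as well. In that fit 5781 of all genes passed, against 2688 with all libraries. SLC7A6 also passed without DMSO 4 h replicate 1 (0.29, 0.016). Between 12 h and 8 h 0 of 10 members passed in edgeR, beside 0.0558% of all tested genes (0.0186% lower and 0.0372% higher). SLC7A5 alone of the 10 had an unadjusted p under 0.05 there (−0.23 ± 0.09, edgeR adjusted p = 0.55). For SLC7A1 the effect at 12 h minus that at 4 h was −0.01 ± 0.06 (95% interval −0.14 to 0.12).

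To compare levels between genes, CPM were divided by the kilobases of all exons of the gene in GENCODE 29. On this scale (RPKM, mean ± SD of 3 libraries) the order after 12 h of copanlisib was SLC38A2 (60.9 ± 2.19), SLC38A1 (51.4 ± 1.19), SLC1A4 (36.4 ± 0.769), SLC1A5 (23.8 ± 1.15), SLC3A2 (13.3 ± 0.162), SLC7A1 (11.7 ± 0.188), SLC7A6 (10.1 ± 0.505), SLC7A5 (9.95 ± 0.298), SLC6A9 (0.541 ± 0.0449) and SLC7A11 (0.423 ± 0.0253), with SLC7A6 and SLC7A5 overlapping. After 12 h of DMSO it was SLC38A1 (58.2 ± 2.12), SLC38A2 (54.5 ± 2.08), SLC1A5 (42.2 ± 0.788), SLC1A4 (33.0 ± 0.632), SLC7A5 (23.6 ± 0.455), SLC3A2 (20.5 ± 1.33), SLC7A1 (18.1 ± 0.646), SLC7A6 (10.00 ± 0.390), SLC6A9 (1.27 ± 0.108) and SLC7A11 (1.24 ± 0.124), where SLC38A1 and SLC38A2, and SLC6A9 and SLC7A11, overlapped. The order depends on the length used. With the longest coding transcript SLC3A2 stood above SLC7A5 in all 6 groups, and at 12 h SLC7A5 held rank 8 of 10 in copanlisib and rank 6 in DMSO, where by exonic length it held rank 8 in copanlisib and rank 5 in DMSO. At 4 h SLC1A5 was at 36.5 ± 4.81 with copanlisib, rank 3 after SLC38A1 and SLC38A2 and overlapping SLC1A4 (32.5 ± 0.498). With DMSO at 4 h it was at 73.9 ± 2.15, rank 1 and overlapping SLC38A1 (73.6 ± 2.42). By the longest coding transcript SLC1A5 held rank 5 with copanlisib and rank 2 with DMSO. SLC7A5 at 4 h held rank 5 with copanlisib (20.4 ± 2.48, overlapping SLC7A1) and rank 4 with DMSO (55.5 ± 1.90, overlapping SLC38A2), and by the longest coding transcript rank 6 with copanlisib and rank 5 with DMSO.

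Partners and paralogs had different fold changes, so their ratio was taken within each library. SLC7A5 per SLC3A2 (RPKM over RPKM) was 1.09 ± 0.036, 0.794 ± 0.029 and 0.747 ± 0.032 in copanlisib cells at 4, 8 and 12 h, against 1.56 ± 0.091, 1.12 ± 0.074 and 1.16 ± 0.066 in DMSO cells (SD, n = 3 each). SLC1A5 per SLC1A4 was 1.12 ± 0.13, 0.738 ± 0.012 and 0.653 ± 0.024 in copanlisib cells, against 2.68 ± 0.13, 1.34 ± 0.040 and 1.28 ± 0.031 in DMSO cells. SLC38A1 per SLC38A2 was 1.06 ± 0.038, 0.897 ± 0.0034 and 0.845 ± 0.015 in copanlisib cells, against 1.30 ± 0.017, 1.18 ± 0.0035 and 1.07 ± 0.019 in DMSO cells. In each of the 3 pairs and at each time, every copanlisib library had the lower ratio. Copanlisib 4 h replicate 3 was at 1.11 for SLC7A5 per SLC3A2, 1.26 for SLC1A5 per SLC1A4 and 1.03 for SLC38A1 per SLC38A2. Whether a ratio lies above or below 1 depends on the length used: with the longest coding transcript in its place, SLC7A5 per SLC3A2 was 0.490 in copanlisib cells at 4 h and 0.701 in DMSO cells at 4 h. The copanlisib ratio over the DMSO ratio does not depend on it, and was 0.698, 0.706 and 0.645 for SLC7A5 per SLC3A2 and 0.418, 0.549 and 0.511 for SLC1A5 per SLC1A4.

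**Figure D3:**
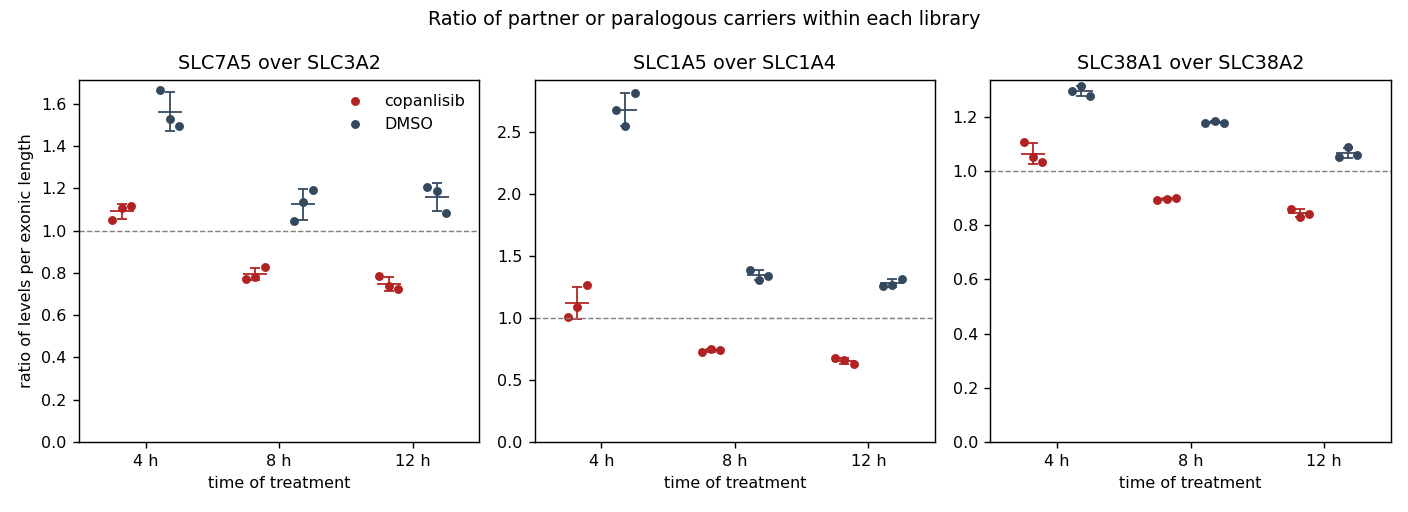
Ratio of 2 carriers' levels per exonic length within each library (vertical axis, starting at 0) at 4, 8 and 12 h (horizontal axis) for SLC7A5 over SLC3A2, SLC1A5 over SLC1A4 and SLC38A1 over SLC38A2; points are libraries, bars the mean and SD, red copanlisib and dark blue DMSO, and the dashed line marks equal levels. At 4 h SLC1A5 over SLC1A4 lay at 1.12 ± 0.13 with copanlisib and 2.68 ± 0.13 with DMSO.

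Likeness of the profiles was measured by Pearson's r of log2 CPM over the 18 libraries, as a description: the libraries share groups and times, and a high r says that 2 genes differ between the groups alike. SLC7A5 was most like SLC1A5 (r = 0.98) and SLC3A2 (0.98) among the members, and its r with SLC1A4 was −0.90. Over the 16 libraries without copanlisib 4 h replicates 1 and 2, SLC7A1 came first (0.99), with SLC3A2 (0.99) and SLC1A5 (0.98) close to it. Of 45 pairs of members, 31 had a positive r, with a median of 0.60. Once group means were removed, the median was 0.03. SLC38A1 and SLC38A2 were the reverse case, with r = 0.33 over all libraries (0.02 over the 16) and 0.93 within groups. Copanlisib 4 h replicate 3 was low for both. Over the 16, where that library is alone in its group, the r within groups was 0.88. Among 9498 protein-coding genes of sufficient level, those most like SLC7A5 were WDR74 (0.99), a nuclear factor of ribosome maturation, and SLC39A14 (0.99), a carrier of zinc and iron. SIRPA (0.98), a surface receptor for CD47, PES1 (0.98), a ribosome assembly factor, and MYC (0.98) came next. MYC fell by 0.70 ± 0.04, 0.69 ± 0.05 and 0.60 ± 0.05 on the log2 scale at 4, 8 and 12 h of copanlisib, and SLC39A14 by 1.29 ± 0.06, 0.93 ± 0.06 and 0.86 ± 0.06. With replicate 3 alone at 4 h MYC was at −0.66 and SLC39A14 at −1.27. The mean standardised profile of the 10 members was most like TNFAIP3 (0.98), which restrains NF-kB, PLAGL2 (0.97), MAT2A (0.97), which makes S-adenosylmethionine from methionine, SRSF2 (0.97), a splicing factor, and PPP1R15B (0.97), which restores translation by directing dephosphorylation of eIF2alpha.

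Gene lists around amino acid supply are read beside the shares of all tested genes that passed in either direction, 38.4%, 33.1% and 30.3% at 4, 8 and 12 h. These shares do not apply to the list counts with replicate 3 alone, a fit with smaller shares at 4 h, as given above. Other carriers at the plasma membrane passed in both directions. Of 20 such genes 10 were tested, of which 4 fell and 1 rose at 4 h (the same counts with replicate 3 alone), 4 fell and 2 rose at 8 h, and 4 fell and 1 rose at 12 h (50%, 60.0% and 50% of the 10), with median log2 fold changes of −0.20, −0.14 and −0.23. SLC38A5, a carrier of glutamine, asparagine, histidine and glycine, had 24.1 ± 0.886 CPM in copanlisib cells and 48.4 ± 2.95 CPM in DMSO cells at 8 h (SD, n = 3 each). Its log2 fold changes at 4, 8 and 12 h were −0.81 ± 0.07 (edgeR adjusted p = 8.1e-10), −1.01 ± 0.07 (edgeR adjusted p = 3.7e-11) and −0.82 ± 0.07 (edgeR adjusted p = 2.9e-09), with −0.65 at 4 h for replicate 3 alone. SLC16A10, which carries aromatic amino acids, fell by 0.60 ± 0.13 at 4 h (−0.53 with replicate 3 alone) and by 1.06 ± 0.13 at 12 h, while its 8 h call (−0.43 ± 0.13) was lost without copanlisib 8 h replicate 3 (−0.34, edgeR adjusted p = 0.068) or DMSO 8 h replicate 1 (−0.38, adjusted p = 0.059). SLC43A1, of the same carrier family as SLC43A2, was at −0.50 ± 0.09 at 4 h, −0.20 ± 0.09 (not passed) at 8 h and −0.32 ± 0.09 at 12 h, with −0.35 at 4 h for replicate 3 alone. SLC43A2, a facilitative carrier of branched-chain amino acids, went the other way, with 31.8 ± 0.796 CPM in copanlisib cells and 19.7 ± 1.40 CPM in DMSO cells at 12 h. It rose at 8 h (0.69 ± 0.09, edgeR adjusted p = 5.4e-07) and 12 h (0.70 ± 0.08, edgeR adjusted p = 2.5e-07), and at 4 h was at −0.19 ± 0.09 (edgeR adjusted p = 0.11), or 0.06 with replicate 3 alone and −0.32 (adjusted p = 0.0017) without it.

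Of 8 tested carriers of lysosomes and other compartments, 4 fell and 0 rose at 4 h, though only 1 fell with replicate 3 alone, 2 fell and 1 rose at 8 h, and 1 fell and 0 rose at 12 h. These were 50%, 37.5% and 12.5% of the 8, the last 2 near or under the shares over all genes. MFSD12, needed for cysteine uptake into lysosomes and melanosomes, fell each time. Its log2 fold change was −0.95 ± 0.10 (edgeR adjusted p = 3.1e-08) at 4 h and −0.58 with replicate 3 alone, −0.45 ± 0.10 (edgeR adjusted p = 8.0e-04) at 8 h and −0.31 ± 0.10 (edgeR adjusted p = 0.022) at 12 h. The 12 h call was lost without copanlisib 12 h replicate 3 (−0.26, adjusted p = 0.11), without DMSO 12 h replicate 3 (−0.29, adjusted p = 0.074) and with counts without strand (−0.20, adjusted p = 0.15). SLC66A1, which exports lysine and arginine from lysosomes, fell at 4 h (−0.41 ± 0.12, edgeR adjusted p = 0.0066), but was at −0.03 with replicate 3 alone. That call was lost without copanlisib 4 h replicate 2 (−0.32, edgeR adjusted p = 0.055) and when only the 4 h libraries were fitted (−0.41, 0.087). SLC66A1 did not pass at 8 h (−0.21, edgeR adjusted p = 0.17) or 12 h (−0.28, 0.069). With only the libraries of the compared time it passed at 8 h (edgeR adjusted p = 0.036) and 12 h (0.010). It also passed in 1 of the 18 fits without 1 library at 8 h and in 3 at 12 h. CTNS, which exports cystine from lysosomes, was at −0.22 ± 0.08, −0.26 ± 0.08 and −0.04 ± 0.08, of which the 4 h and 8 h values passed. Both calls depended on single libraries. The 4 h call was lost with replicate 3 alone (−0.26, edgeR adjusted p = 0.12), without copanlisib 4 h replicate 3 (−0.20, 0.060), without each of the DMSO 4 h libraries and with DESeq2 (adjusted p = 0.082). The 8 h call was lost without copanlisib 8 h replicate 2 or 3, without DMSO 8 h replicate 2 or 3 and with DESeq2 (adjusted p = 0.054). SLC38A9, which senses lysosomal arginine, rose at 8 h (0.32 ± 0.10, edgeR adjusted p = 0.012), not so without copanlisib 8 h replicate 2 (0.24, adjusted p = 0.083). Of 9 tested mitochondrial carriers, 4 fell and 1 rose at 4 h (3 and 0 with replicate 3 alone), 4 fell and 1 rose at 8 h, and 3 fell and 1 rose at 12 h (55.6%, 55.6% and 44.4% of the 9). SLC25A22, a glutamate carrier, had 13.7 ± 2.89 CPM in copanlisib cells and 29.7 ± 1.99 CPM in DMSO cells at 4 h, with log2 fold changes of −1.13 ± 0.11 (edgeR adjusted p = 4.2e-09) at 4 h (−0.81 with replicate 3 alone), −0.62 ± 0.11 at 8 h and −0.44 ± 0.11 at 12 h. SLC25A13, which exchanges aspartate for glutamate, was at −0.31 ± 0.07 (−0.45 with replicate 3 alone), −0.64 ± 0.07 and −0.66 ± 0.07, and SFXN1, which carries serine, at −0.08 ± 0.05 (not passed, −0.15 with replicate 3 alone) at 4 h, −0.37 ± 0.05 at 8 h and −0.36 ± 0.05 at 12 h. Its paralog SFXN3 rose, by 0.33 ± 0.12, 0.48 ± 0.11 and 0.35 ± 0.11 at 4, 8 and 12 h, but only the 8 h call held without each single library. The 4 h call was lost with replicate 3 alone (0.40, edgeR adjusted p = 0.062), without copanlisib 4 h replicate 1 (0.29, 0.093) or DMSO 4 h replicate 3 (0.28, 0.12) and with DESeq2 (0.055). The 12 h call was lost without copanlisib 12 h replicate 3 (0.30, edgeR adjusted p = 0.099) or DMSO 12 h replicate 1 (0.22, 0.18).

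Of the 6 lists, the one with the most uniform direction was that of ATF4, the transcription factor of the amino acid response, and its targets other than carriers. Of 26 tested genes, 25 fell at 4 h (24 with replicate 3 alone), 18 at 8 h and 23 at 12 h, and 0 rose at any time, with median log2 fold changes of −0.47, −0.40 and −0.51. These were 96.2%, 69.2% and 88.5% of the 26. The 6 lists were chosen with earlier results of these data known, so these counts are a description and no independent test. CHAC1, which degrades glutathione, had 5.36 ± 0.709 CPM in copanlisib cells and 19.1 ± 1.18 CPM in DMSO cells at 4 h, and its log2 fold changes were −1.83 ± 0.10 (edgeR adjusted p = 3.0e-13), −0.49 ± 0.12 (edgeR adjusted p = 0.0024) and −1.48 ± 0.11 (edgeR adjusted p = 1.6e-10) at 4, 8 and 12 h (−1.63 at 4 h with replicate 3 alone). PSAT1, of serine synthesis, had 23.1 ± 0.458 CPM in copanlisib cells and 52.2 ± 3.01 CPM in DMSO cells at 8 h, and ASNS, asparagine synthetase, had 27.4 ± 1.87 CPM in copanlisib cells and 55.5 ± 0.825 CPM in DMSO cells. STC2, a secreted glycoprotein, was at −1.33 ± 0.09, −0.74 ± 0.10 and −0.94 ± 0.11 on the log2 scale (−1.39 at 4 h with replicate 3 alone). The transcript of ATF4 itself, added here for its role in the list, fell at 4 h (−0.38 ± 0.04 (edgeR adjusted p = 1.9e-08); −0.37 with replicate 3 alone) and 12 h (−0.38 ± 0.04, edgeR adjusted p = 4.0e-08) and did not pass at 8 h (−0.02 ± 0.04, edgeR adjusted p = 0.72).

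Sensors and regulators of amino acids upstream of mTORC1 were mixed. Of 29 tested genes, 9 fell and 5 rose at 4 h (3 and 4 with replicate 3 alone), 7 fell and 2 rose at 8 h, and 6 fell and 4 rose at 12 h, and the median log2 fold change lay between −0.06 and −0.02. These were 48.3%, 31.0% and 34.5% of the 29, close to the shares over all genes at 8 and 12 h. SEH1L and MIOS, subunits of the GATOR2 complex, fell at all times, SEH1L by 0.52 ± 0.05, 0.73 ± 0.05 and 0.54 ± 0.06 and MIOS by 0.47 ± 0.06, 0.61 ± 0.06 and 0.44 ± 0.06 on the log2 scale (by 0.53 and 0.63 at 4 h with replicate 3 alone). SESN3, a sestrin that restrains GATOR2, rose by 0.69 ± 0.07 (edgeR adjusted p = 1.7e-08), 0.25 ± 0.07 (edgeR adjusted p = 0.0049) and 0.22 ± 0.07 (edgeR adjusted p = 0.012) at 4, 8 and 12 h, with 0.52 at 4 h for replicate 3 alone and 0.19 (adjusted p = 0.068) at 12 h without DMSO 12 h replicate 3. FNIP2, a partner of folliculin, fell at 8 h (−0.38 ± 0.09, edgeR adjusted p = 0.0021) and 12 h (−0.73 ± 0.10, edgeR adjusted p = 1.8e-06) and was at 0.04 ± 0.09 at 4 h (0.01 with replicate 3 alone). The 8 h call was lost without DMSO 8 h replicate 1 (−0.25, edgeR adjusted p = 0.064). Of 13 enzymes that use the carried amino acids, 4 fell and 1 rose at 4 h (4 and 0 with replicate 3 alone), 6 fell and 0 rose at 8 h, and 6 fell and 1 rose at 12 h (38.5%, 46.2% and 53.8% of the 13). ODC1, which makes the polyamine putrescine from ornithine, had 69.2 ± 1.86 CPM in copanlisib cells and 129 ± 3.82 CPM in DMSO cells at 8 h (log2 −0.89 ± 0.05, edgeR adjusted p = 1.2e-12). BCAT1, which transaminates leucine, isoleucine and valine, had 304 ± 5.25 CPM in copanlisib cells and 427 ± 4.95 CPM in DMSO cells at 12 h (log2 −0.49 ± 0.05, edgeR adjusted p = 3.6e-08), and at 4 h was at −0.00 ± 0.05, or −0.17 (adjusted p = 0.011) with replicate 3 alone. GCLM, a subunit of the enzyme that joins cysteine to glutamate for glutathione, fell by 0.28 ± 0.07, 0.34 ± 0.08 and 0.40 ± 0.08 on the log2 scale at 4, 8 and 12 h (0.41 at 4 h with replicate 3 alone), and GOT1, an aspartate aminotransferase, by 0.25 ± 0.05, 0.25 ± 0.05 and 0.18 ± 0.05. For GOT1 the 4 h value was −0.32 with replicate 3 alone, and the 12 h call was lost without copanlisib 12 h replicate 3 (−0.14, edgeR adjusted p = 0.066).

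**Figure D4:**
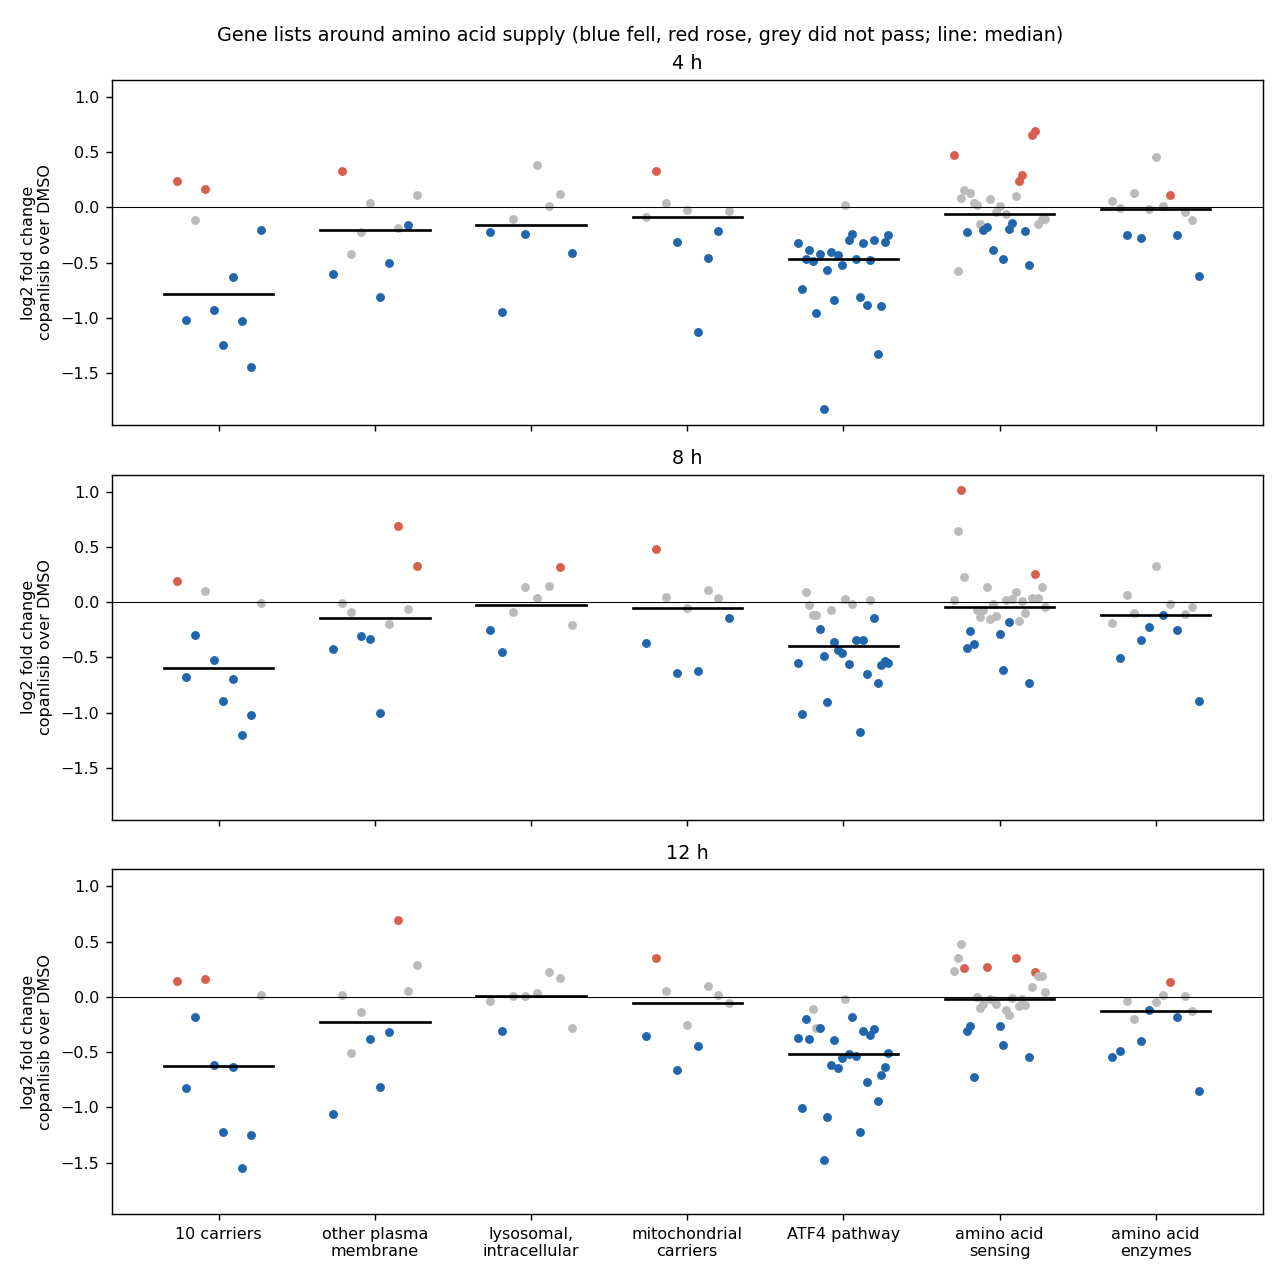
Log2 fold change of copanlisib over DMSO (vertical axis, the same scale in each panel) at 4, 8 and 12 h for the 10 carriers and for 6 gene lists around amino acid supply (horizontal axis); each point is a tested gene, blue where it fell, red where it rose and grey where it did not pass, and black lines mark medians. The median of the 10 carriers lay at −0.78, −0.60 and −0.63, and no gene of the ATF4 list was red in any panel.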

How the data were processed

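Per the labels, total RNA of HAIR-M cells was made into libraries with an Illumina TruSeq kit. Per the submitters' processing notes, CASAVA 1.7 and STAR 2.5.2b were used, with build hg38, and no annotation version is named there. The authors deposited raw read counts per gene in 3 columns: without strand and for each strand. In every library 94.3% to 95.3% of strand-assigned reads lay in 1 strand column, which was used here although the labels' kit does not mark strand; where a gene overlaps an antisense partner, this choice sets its level. Reads mapping to several places (9.21% to 10.1%) were not counted in genes, and the 4 summary lines stayed out of library sizes.

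Names came from a gene name table and GENCODE 29 (3730 of 60483 identifiers stayed unnamed). Of the genes, 16122 passed filterByExpr. Counts were scaled by TMM and fitted with edgeR 4.0.16 (R 4.3.3) by glmQLFit, 1 mean per group over 18 libraries, and tested two-sided with glmQLFTest; p was adjusted by Benjamini-Hochberg over all tested genes, and an adjusted p under 0.05 counts as rose or fell. The SE is the log2 fold change over the square root of F. The fit was also run on simulated data in which a gene's dispersion was the same in every library. That run does not cover the unequal copanlisib 4 h libraries. CPM and RPKM were computed here. Replicates differed by 1.52 to 19.9 in chi-square per gene, so no pair agreed within sampling noise. The highest values, 19.9 and 15.8, were those of copanlisib 4 h replicate 3 against replicates 1 and 2. The next highest was 2.94, for DMSO 4 h replicates 2 and 3. Alternatives were DESeq2 size factors, DESeq2 1.42.0, limma-voom (limma 3.58.1), no filter, counts without strand, the replicate block, only the libraries of the compared times, an adjusted p under 0.01, replicate 3 as the only copanlisib library at 4 h and each library left out; another gene length, and replicate 3 alone at 4 h for the joint test and likeness, were added after seeing the data. The members, gene lists and tests were chosen with earlier results of these data known. The named genes were the members, per list up to 4 genes that passed, by the size of their mean change (mean log2 CPM 2 or more), and the 5 genes most like SLC7A5 and the 5 most like the members' mean (mean log2 CPM 3 or more). ATF4 was added after its values were seen.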

Additional observations from a re-analysis of the deposited data

Results flagged for a closer look

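The copanlisib effect differed between times, by a test of the difference itself, for 4 members (log2 fold change at the later time minus that at 4 h). Between 8 h and 4 h the difference was 0.43 for SLC7A5, 0.41 for SLC3A2 and 0.35 for SLC1A5, and between 12 h and 4 h it was 0.31 for SLC3A2 and −0.52 for SLC7A11. All 5 rest on the 4 h copanlisib libraries, of which replicates 1 and 2 stood apart in unmapped and mitochondrial reads, and none passed with replicate 3 as the only copanlisib library at 4 h.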

How the results depend on the processing

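The count of members that fell with copanlisib was 7 at 8 and 12 h under every alternative run and 6 to 8 at 4 h. For members, 608 of the values under other settings kept direction and side of the threshold, 12 lost the call, 3 gained it and 7 changed sign; with 1 library left out these numbers were 1207, 15, 13 and 25. No value that changed sign had passed under either setting. At an adjusted p under 0.01, 1 member rose at 12 h, for the effect at 12 h against 4 h 0 members were called (0 fell, 0 rose) with 1134 genes, and 1062 genes were called for 8 h minus 4 h. With only the libraries of the compared times, 1 member rose at 4 h (3733 genes called) and 2 at 8 h, the 12 h against 4 h effect had 1 member called (0 fell) and 1719 genes, and 8 h minus 4 h had 1746 genes. With replicate 3 as the only copanlisib library at 4 h, 1 member rose at 4 h (3778 genes called) and 2 at 8 h, 0 members were called for 12 h against 4 h (0 fell, 0 rose; 900 genes) and 0 for 8 h minus 4 h (0 rose; 409 genes). The cause of these moves was not tested, apart from the fewer libraries and the stricter threshold themselves.

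With each library left out in turn, members that rose numbered 1 to 2 at 4 h, 1 to 2 at 8 h and 1 to 2 at 12 h. For the effect at 12 h against 4 h, 0 to 6 members were called (0 to 2 fell, 0 to 4 rose) and 1596 to 5781 genes, against 2 members and 2688 genes with all libraries. For 8 h minus 4 h, 3 to 6 members were called (0 to 2 fell) and 1650 to 6353 genes, against 3 members and 3086 genes. The upper ends came without copanlisib 4 h replicate 3. Same-numbered libraries did not deviate together (median r = −4.6e-04 over 45 pairs, 1 of them over 0.1), so numbers were used here only as names. This does not show how the replicates were made. With the replicate block 9, 8 and 9 members were called at 4, 8 and 12 h, as without it, and 6206, 5301 and 4887 genes. Read number limits SLC6A9 and SLC7A11, with as few as 45 and 62 reads in a library.

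Without the filter SLC7A6 at 8 h was at 0.00999 and BCAT1 at 4 h at 0.0026, and with counts without strand BCAT1 was at 0.0054. With replicate 3 alone at 4 h the signs that changed were those of SLC43A2 at 4 h (0.063), of the effect at 12 h minus 4 h for SLC38A1 (0.10), SLC38A2 (0.11), SLC1A5 (−0.0061) and SLC6A9 (−0.20), and of SLC38A2 for the effect at 8 h minus 4 h (0.052) and for 12 h against 4 h in copanlisib (0.067). With 1 library left out, SLC7A6 ranged over −0.018 to 0.014 at 8 h, −0.018 to 0.053 at 12 h and −0.028 to 0.038 for 12 h against 4 h in copanlisib, BCAT1 at 4 h over −0.052 to 0.071 and SLC38A9 at 4 h over −0.026 to 0.19. The effect at 12 h minus 4 h ranged over −0.076 to 0.020 for SLC38A2, −0.11 to 0.13 for SLC6A9 and −0.036 to 0.027 for SLC7A1.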
